A study of Homo sapiens with 24 samples.

Results

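Mitosis and G2/M genes are the genes whose products drive a cell from the end of DNA replication through chromosome segregation and division. The 50 described here were chosen by symbol, as mitotic kinases, cyclins, kinesins, and kinetochore and spindle genes, and not by their values. Earlier results of these data were known when they were chosen. All 50 were found among the 58735 Ensembl genes of the count tables. Each of them passed the filter on low counts in all 14 comparisons.

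RNA-seq of polyadenylated RNA was carried out on HCT116, a human colorectal carcinoma cell line, in 24 libraries that form 8 groups of 3. Every line carried the plant auxin receptor OsTIR1 under a doxycycline-inducible promoter. The WT line had no degron tag. An auxin-inducible degron (AID), through which auxin triggers degradation of the protein, sat on UHRF1 in UHRF1-AID cells, on DNMT1 in DNMT1-AID cells and on both in UHRF1-AID/DNMT1-AID cells, called compound cells below. Each line was sampled before auxin (day 0) and after 4 days with 500 µM auxin. Cells to be treated, WT cells included, first had 1 day in 2 µg/mL doxycycline with 20 µM auxinole, an inhibitor of OsTIR1, then doxycycline at that dose with auxin, in medium renewed every 2 days. Whether day 0 cells had received doxycycline and auxinole is not stated. By the study's reporting summary, the 3 replicates of an AID line are 3 different clones of it. Which clone a replicate number stands for, and whether it is the same clone at both days, is not stated.

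Entry into mitosis is driven by CDK1 bound to cyclin B, which CDC25 phosphatases switch on and PLK1 and Aurora kinases reinforce. Chromosomes are then attached by kinetochores to a spindle that kinesins and other microtubule-binding proteins build, and a checkpoint of BUB and MAD proteins holds back the anaphase-promoting complex until attachment is complete. Transcripts of these genes are low in G1 and in resting cells and high in G2 and mitosis, through the MuvB-based DREAM, B-MYB and FOXM1 complexes, which act at promoter elements named CHR, and through NF-Y, which binds CCAAT boxes.

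Gene counts of a library ranged from 15824804 to 25073821, with a median of 18840996. At day 0 the libraries held 18883942 to 19778281 counts in WT, 18630957 to 25073821 in UHRF1-AID, 20609617 to 21952477 in DNMT1-AID and 22740070 to 23972076 in compound cells. At day 4 the ranges were 16025660 to 16249481 in WT, 17776768 to 19991383 in UHRF1-AID, 15824804 to 16987046 in DNMT1-AID and 15936193 to 16645939 in compound cells. Levels are given as CPM as edgeR computes it, a gene's count relative to the library total, with totals scaled by TMM over all 24 libraries.

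Messenger RNA of the tagged genes was read first as a check of the labels. At day 0, UHRF1, which binds hemimethylated DNA and recruits DNMT1, was at 89.2, 81.4 and 50.5 CPM in WT, 166, 148 and 197 in the UHRF1-AID line, 51.8, 47.9 and 108 in the DNMT1-AID line and 78.4, 177 and 198 in compound cells. At day 4, UHRF1 was at 17.5, 24.3 and 33.7 CPM in WT, 40.2, 35 and 82.9 in the UHRF1-AID line, 39.6, 37.3 and 32.7 in the DNMT1-AID line and 26.8, 51.1 and 56.4 in compound cells. The UHRF1 transcript was higher in all 3 UHRF1-AID libraries than in any WT library at day 0, and lower at day 4 than at day 0 in every line, WT included, with no overlap. At day 0, DNMT1, the maintenance methyltransferase, was at 171, 180 and 76.9 CPM in WT, 173, 177 and 195 in the UHRF1-AID line, 29, 31.1 and 74 in the DNMT1-AID line and 77.5, 80.6 and 41 in compound cells. At day 4, DNMT1 was at 23.7, 24.3 and 44.9 CPM in WT, 37.4, 26.9 and 65 in the UHRF1-AID line, 16.5, 13.1 and 16.1 in the DNMT1-AID line and 13.3, 14.3 and 9.24 in compound cells. The DNMT1 transcript was lower in all 3 DNMT1-AID libraries than in any WT library at both days, and lower at day 4 than at day 0 in every line, again with no overlap. The degron removes protein, so these levels bear on the labels only in part. The epithelial markers EPCAM, KRT8, KRT18, KRT19, CDH1, CDX2 and VIL1 summed to between 3950 and 8180 CPM, with KRT19 the most abundant and 6 of 7 passing the filter on low counts. Endothelial markers (PECAM1, VWF, CDH5; VWF highest) summed to at most 1.9 CPM. CDH5 and the fibroblast marker COL1A2 had at most 3 counts in any library. Fibroblast markers (COL1A1, COL1A2, DCN, PDGFRB; COL1A1 the most abundant) summed to 17.9, 16.1 and 20 CPM in compound cells at day 4 against 3.32, 5.12 and 8.66 in WT. At the same day they summed to 10.6, 4.23 and 11.8 CPM in UHRF1-AID cells and 11.7, 13.9 and 9.03 in DNMT1-AID cells. Their part in any result was not tested.

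The libraries fall into 2 sets by the alignment folder named in the count tables. The 12 libraries of day 0 share one folder with the 3 of UHRF1-AID cells at day 4, and the other 9 day 4 libraries share the second and alone hold ERCC spike-in counts. For WT, DNMT1-AID and compound cells, day and folder therefore cannot be told apart. The same holds for line and folder in UHRF1-AID against WT at day 4, and for the difference of day effects between these lines. Both sides of a comparison lay in 1 folder in all day 0 comparisons, in UHRF1-AID cells between the days, and among WT, DNMT1-AID and compound cells at day 4. Libraries also differed in how counts moved with gene length. In WT day 0 replicate 3 and DNMT1-AID day 0 replicates 1 and 2, counts of long genes were low. Across 15750 genes, which are not independent replicates, the Spearman correlation of exon length with the log2 ratio to the mean of the 12 day 0 libraries was -0.264, -0.27 and -0.233 in them. In the other WT day 0 replicates it was 0.274 and 0.263, and in UHRF1-AID day 0 replicates 1, 2 and 3 it was 0.29, 0.148 and 0.272. Against the mean of the 12 day 4 libraries it was 0.272, -0.0973 and 0.204 in UHRF1-AID day 4 replicates 1, 2 and 3. In compound day 4 replicates it was -0.156, -0.191 and -0.174.

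**Figure D1:**
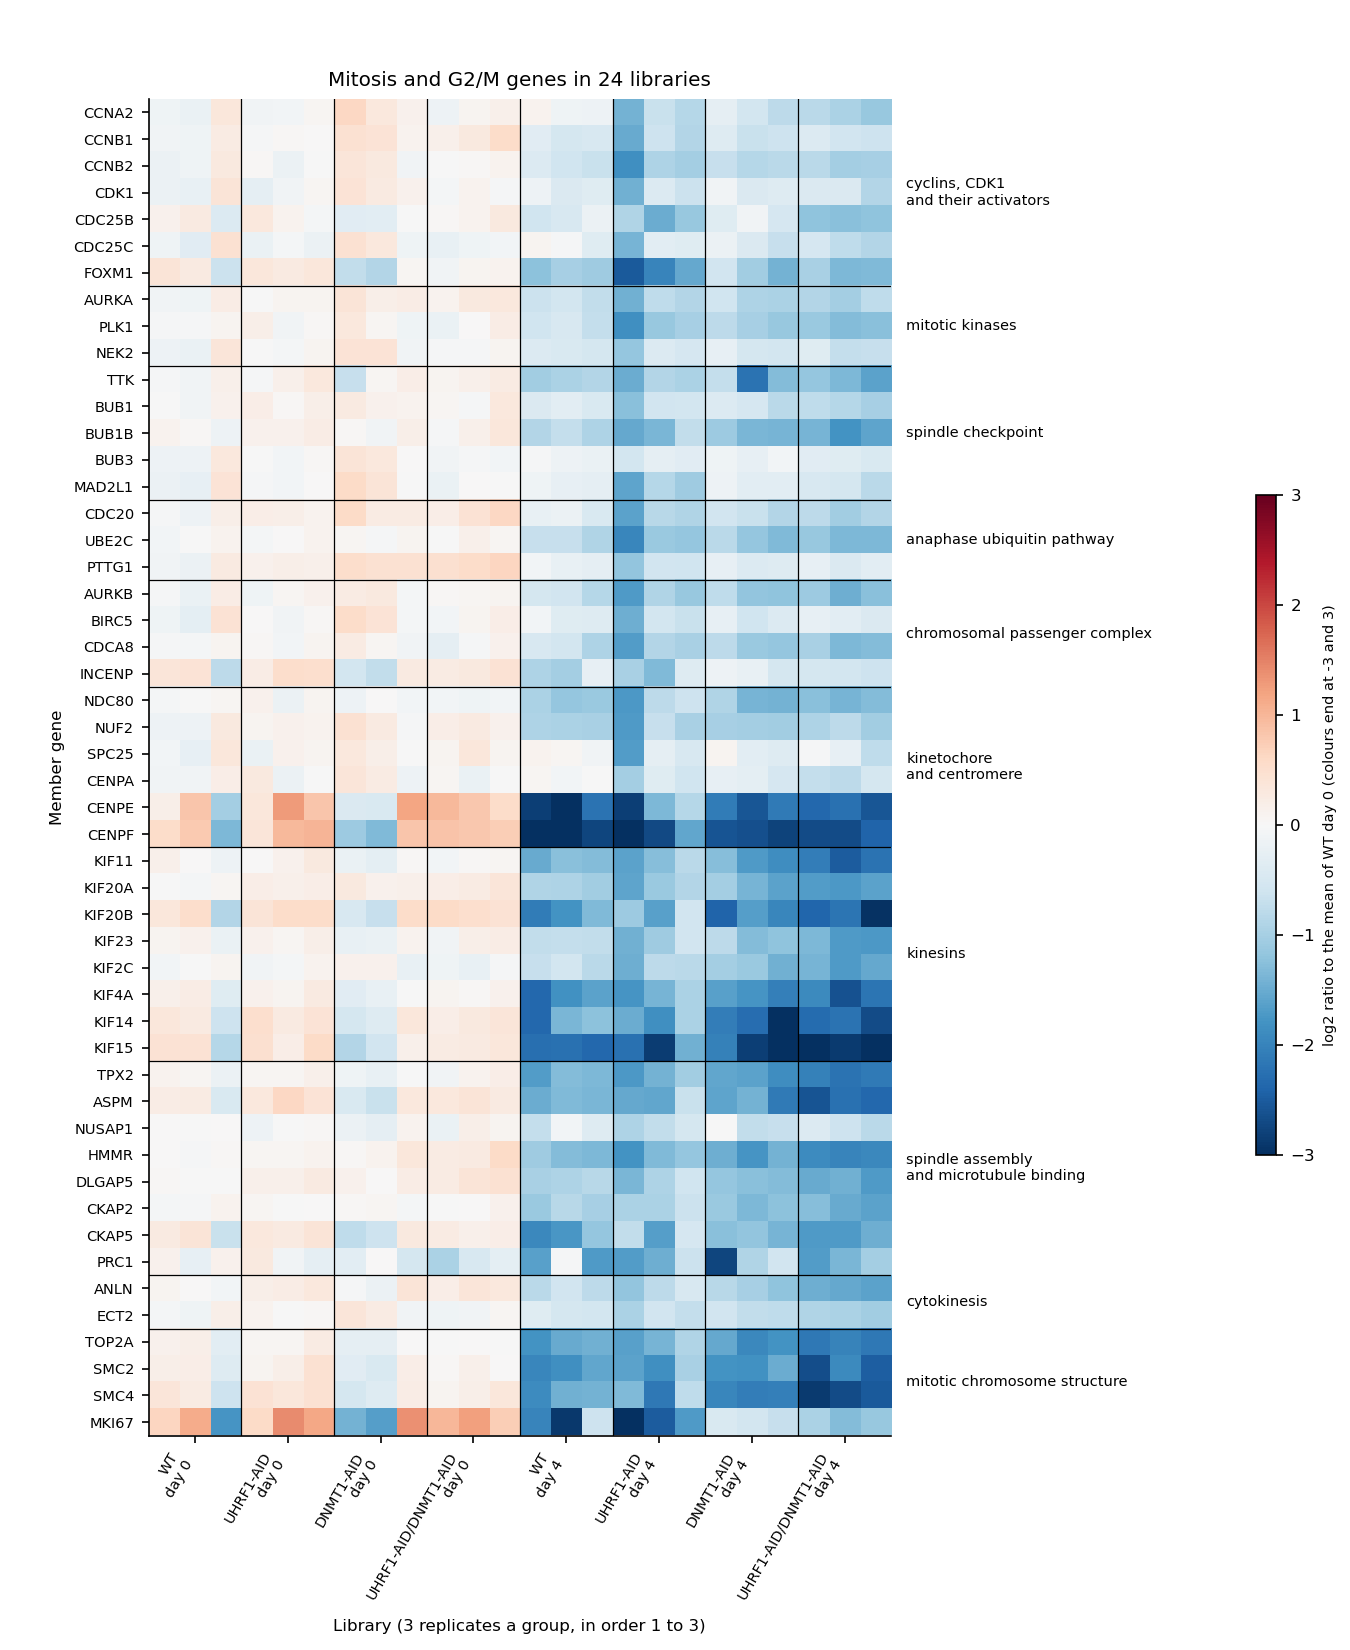
Log2 ratio of each of the 50 members (vertical axis, by role) in each of the 24 libraries (horizontal axis, 3 a group) to the mean of the 3 WT day 0 libraries, with colours ending at -3 and 3. The 12 day 4 libraries are blue in nearly every member, and the day 0 libraries lie nearer to 0, with CENPE, CENPF and MKI67 the most spread.

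The promoters of the members are described next. RefSeq promoters of 250 bases before to 50 after the start (GRCh38.p14) were at hand for 43 members, in 55 promoters. FOXM1, AURKA, TTK, BUB3, UBE2C, BIRC5 and TPX2 had no entry. A CHR was searched as TTTGAA or TTTAAA and a CCAAT box as CCAAT, each on both strands, where TTTAAA reads the same on both. A CHR stood in 42 of the 55 promoters (76.4%), against 24% of all 35116 promoters of that length. A CCAAT box stood in 38 (69.1%), against 34.6% of all promoters, and both in 31 (56.4%), against 9.27%. All 8 kinesin promoters and all 6 of kinetochore genes held a CHR. By their roles 10 members served as anchors, CCNB1, CDK1, PLK1, AURKA, CDC20, BUB1, CENPF, KIF20A, TOP2A and MKI67. Those with 1 promoter and both motifs within 150 bases before to 20 after the start were CDC20 (chr1:43358831-43359000, plus strand), CENPF (chr1:214603045-214603214, plus), CCNB1 (chr5:69167000-69167169, plus), KIF20A (chr5:138178962-138179131, plus), MKI67 (chr10:128126404-128126573, minus) and PLK1 (chr16:23678739-23678908, plus). Each window is printed 5′ to 3′ along the gene, with CHR and CCAAT letters of either strand in capitals, to show where the motifs sit around the start.
CDC20: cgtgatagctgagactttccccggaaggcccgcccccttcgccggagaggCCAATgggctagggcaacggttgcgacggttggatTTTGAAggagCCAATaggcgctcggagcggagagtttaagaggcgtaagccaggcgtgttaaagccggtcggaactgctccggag
CENPF: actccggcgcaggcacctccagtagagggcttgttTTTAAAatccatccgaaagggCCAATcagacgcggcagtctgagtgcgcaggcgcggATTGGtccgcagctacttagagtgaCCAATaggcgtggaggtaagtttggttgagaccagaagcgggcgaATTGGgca
CCNB1: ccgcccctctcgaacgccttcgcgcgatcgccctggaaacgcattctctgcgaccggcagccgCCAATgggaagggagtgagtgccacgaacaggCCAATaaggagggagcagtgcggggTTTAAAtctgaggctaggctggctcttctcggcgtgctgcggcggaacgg
KIF20A: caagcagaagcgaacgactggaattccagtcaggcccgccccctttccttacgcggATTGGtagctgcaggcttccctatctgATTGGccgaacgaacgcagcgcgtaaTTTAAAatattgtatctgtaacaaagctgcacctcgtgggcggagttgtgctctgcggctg
MKI67: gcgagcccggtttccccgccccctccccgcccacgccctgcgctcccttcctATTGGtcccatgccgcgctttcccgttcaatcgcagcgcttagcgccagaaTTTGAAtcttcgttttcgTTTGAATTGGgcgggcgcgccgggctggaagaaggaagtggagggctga
PLK1: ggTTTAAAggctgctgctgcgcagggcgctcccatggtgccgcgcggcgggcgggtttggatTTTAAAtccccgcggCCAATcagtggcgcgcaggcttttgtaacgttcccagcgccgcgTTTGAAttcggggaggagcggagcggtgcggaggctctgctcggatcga
CENPF held 1 CHR and 4 CCAAT boxes and PLK1 3 CHR and 1 CCAAT box in these windows, and in MKI67 a CHR and a CCAAT box share 1 letter. A match describes the letters and does not show a bound site or a cause.

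Per kilobase of exon, which allows genes to be compared, CDC20 was the most abundant member in WT day 0 cells at 119 CPM per kb. It also led in WT at day 4 with 96.8 CPM per kb, in UHRF1-AID cells with 132 at day 0 and 56.2 at day 4, and in DNMT1-AID cells with 153 and 72.4 CPM per kb. In compound cells CDC20 led at day 0 with 159 CPM per kb and BIRC5 at day 4 with 66.5. The median over members was 16.3 CPM per kb in WT at day 0 and 9.98 at day 4, and 19.7 and 6.31 in compound cells. In UHRF1-AID cells it was 17.7 at day 0 and 9.43 at day 4, and in DNMT1-AID cells 18 and 8.22. PRC1, a spindle midzone protein, was the lowest member in WT at day 0 with 0.326 CPM per kb. Other genes overlap the exons of 17 members, most of all NUSAP1 with 62.2% of its exon length, PRC1 with 58.4%, SMC4 with 25.6% and FOXM1 with 15.9%. Over all libraries the genes that overlap SMC4 held 19941 counts, against 19010 of SMC4 itself. Those over PRC1 held 301 against 544, the one over FOXM1 held 1919 against 14664, and the one over NUSAP1 had no count. Genes over CENPA, CDC25C, KIF4A and KIF20A held 30090, 27376, 21811 and 37750 counts, against 12769, 10636, 13611 and 34080. They overlap 6.96%, 8.78%, 1.7% and 5.05% of the exon length of these members. The gene over CCNA2 held 24613 counts against 46935 and overlaps 9.08% of its exon length. How overlaps and strands were counted is not stated, so the values of all 17 members with overlaps carry that limit. The summed CPM of the members was 4650 ± 180 (SD, n = 3) in WT at day 0 and 3020 ± 71.8 at day 4. In UHRF1-AID cells it was 4910 ± 133 and 2300 ± 465, in DNMT1-AID cells 5010 ± 211 and 2700 ± 246, and in compound cells 5040 ± 328 and 2270 ± 141.

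Cyclins and their kinase come first among the roles. At day 0, CCNB1, the cyclin that activates CDK1 at mitotic entry, was at 218, 214 and 282 CPM in WT, 230, 241 and 237 in the UHRF1-AID line, 324, 312 and 253 in the DNMT1-AID line and 260, 288 and 347 in compound cells. At day 4, CCNB1 was at 186, 162 and 170 CPM in WT, 83.2, 153 and 129 in the UHRF1-AID line, 180, 150 and 153 in the DNMT1-AID line and 177, 159 and 153 in compound cells. CCNB1 was lower in all 12 day 4 libraries than in any day 0 library, and UHRF1-AID replicate 1 was the lowest. At day 0, CDK1, the kinase of mitotic entry, was at 172, 166 and 251 CPM in WT, 160, 180 and 200 in the UHRF1-AID line, 256, 231 and 210 in the DNMT1-AID line and 185, 207 and 189 in compound cells. At day 4, CDK1 was at 175, 143 and 150 CPM in WT, 70.5, 144 and 124 in the UHRF1-AID line, 179, 143 and 149 in the DNMT1-AID line and 143, 142 and 106 in compound cells. Days did not overlap for CDK1 in the 3 AID lines and did in WT. At day 0, CCNA2, the cyclin of S phase and G2, was at 106, 100 and 146 CPM in WT, 107, 109 and 120 in the UHRF1-AID line, 178, 143 and 127 in the DNMT1-AID line and 105, 122 and 128 in compound cells. At day 4, CCNA2 was at 124, 105 and 104 CPM in WT, 43.3, 73.1 and 63.6 in the UHRF1-AID line, 95.9, 79.4 and 67.2 in the DNMT1-AID line and 65.7, 59.9 and 52.7 in compound cells. For CCNA2 the days overlapped in WT, and at day 4 each AID line was below WT in all 3 libraries.

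Among regulators of these kinases, CDC25B and FOXM1 were followed by library. At day 0, CDC25B, a phosphatase that activates CDK1, was at 251, 275 and 171 CPM in WT, 285, 247 and 218 in the UHRF1-AID line, 181, 182 and 225 in the DNMT1-AID line and 234, 245 and 280 in compound cells. At day 4, CDC25B was at 151, 163 and 200 CPM in WT, 122, 80.7 and 104 in the UHRF1-AID line, 176, 212 and 162 in the DNMT1-AID line and 98.7, 94.9 and 99.3 in compound cells. CDC25B was lower at day 4 in UHRF1-AID and compound cells with no overlap of days, while the days overlapped in WT and DNMT1-AID cells. At day 0, FOXM1, a transcription factor of G2/M genes, was at 55.8, 52.1 and 27.3 CPM in WT, 54.6, 51.8 and 54.6 in the UHRF1-AID line, 25.9, 23.4 and 44.5 in the DNMT1-AID line and 40.2, 45.8 and 46.1 in compound cells. At day 4, FOXM1 was at 18.2, 21.5 and 20.5 CPM in WT, 7.41, 10.8 and 14.7 in the UHRF1-AID line, 28.7, 20.9 and 16.1 in the DNMT1-AID line and 21.7, 16.9 and 17.1 in compound cells. FOXM1 was low at day 0 in the 3 libraries with low counts of long genes, and at day 4 UHRF1-AID cells were below WT in every library.

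Of the mitotic kinases, both anchors were lower at day 4 in all 4 lines. At day 0, PLK1, a kinase of mitotic entry and spindle formation, was at 138, 136 and 147 CPM in WT, 160, 130 and 144 in the UHRF1-AID line, 175, 146 and 128 in the DNMT1-AID line and 122, 141 and 164 in compound cells. At day 4, PLK1 was at 92, 100 and 84.7 CPM in WT, 39.2, 63.2 and 70.4 in the UHRF1-AID line, 80.8, 70.2 and 63.7 in the DNMT1-AID line and 65, 57 and 58.6 in compound cells. At day 4 PLK1 was lower in all 9 AID libraries than in any WT library. At day 0, AURKA, the kinase of centrosome and spindle maturation, was at 70, 69.1 and 87.5 CPM in WT, 74.8, 78.9 and 78.9 in the UHRF1-AID line, 98.1, 84.4 and 87 in the DNMT1-AID line and 80.1, 92.5 and 92.9 in compound cells. At day 4, AURKA was at 48.3, 50.9 and 45 CPM in WT, 27.4, 44.5 and 40.8 in the UHRF1-AID line, 49.3, 39.3 and 38.8 in the DNMT1-AID line and 40.7, 36.8 and 44 in compound cells. AURKA did not overlap between any day 4 and any day 0 library, and DNMT1-AID cells overlapped with WT at day 4.

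In the checkpoint and the anaphase pathway, BUB1, CDC20 and PTTG1 were read. At day 0, BUB1, a kinase of the spindle checkpoint, was at 87.7, 81.7 and 96.1 CPM in WT, 101, 90.9 and 99 in the UHRF1-AID line, 107, 96.9 and 95.2 in the DNMT1-AID line and 92.3, 86.1 and 109 in compound cells. At day 4, BUB1 was at 65.6, 71.1 and 64.7 CPM in WT, 36.8, 59.3 and 60.3 in the UHRF1-AID line, 66.5, 62.4 and 50.8 in the DNMT1-AID line and 52.3, 48.7 and 44.3 in compound cells. BUB1 was lower in every day 4 library than in any day 0 library. At day 0, CDC20, the activator of the anaphase-promoting complex, was at 235, 217 and 273 CPM in WT, 276, 271 and 260 in the UHRF1-AID line, 361, 286 and 288 in the DNMT1-AID line and 275, 323 and 372 in compound cells. At day 4, CDC20 was at 205, 212 and 175 CPM in WT, 79.5, 135 and 129 in the UHRF1-AID line, 162, 150 and 130 in the DNMT1-AID line and 140, 117 and 131 in compound cells. CDC20 was higher than WT in all day 0 libraries of DNMT1-AID and compound cells and lower than WT in all 9 AID libraries at day 4. At day 0, PTTG1, the securin that holds separase in check, was at 81.2, 77.5 and 106 CPM in WT, 95.2, 98.4 and 97.5 in the UHRF1-AID line, 126, 120 and 120 in the DNMT1-AID line and 121, 127 and 136 in compound cells. At day 4, PTTG1 was at 82.1, 75.4 and 72.3 CPM in WT, 38.3, 59 and 58 in the UHRF1-AID line, 73.2, 66 and 66.6 in the DNMT1-AID line and 73.1, 64.6 and 69.8 in compound cells. PTTG1 overlapped between the days in WT only, and at day 0 it was above WT in all libraries of the same pair of lines as CDC20.

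Of the kinetochore genes, CENPF and CENPE have long transcripts. At day 0, CENPF, a kinetochore protein, was at 51.8, 61.3 and 13.9 CPM in WT, 45.9, 69.8 and 72 in the UHRF1-AID line, 16.7, 14 and 63.4 in the DNMT1-AID line and 63.9, 62.5 and 59.2 in compound cells. At day 4, CENPF was at 2.87, 1.62 and 5.17 CPM in WT, 3.7, 5.34 and 12 in the UHRF1-AID line, 5.75, 5.56 and 5.07 in the DNMT1-AID line and 5.4, 5.44 and 6.56 in compound cells. CENPF was lower in every day 4 library than in any day 0 library, and at day 0 it was low in WT replicate 3 and DNMT1-AID replicates 1 and 2. At day 0, CENPE, a kinesin-like motor of the kinetochore, was at 5.8, 9.27 and 2.48 CPM in WT, 6.5, 12.6 and 9.25 in the UHRF1-AID line, 3.79, 3.69 and 11.8 in the DNMT1-AID line and 10.2, 9.07 and 7.53 in compound cells. At day 4, CENPE was at 0.638, 0.181 and 1.02 CPM in WT, 0.633, 1.96 and 2.78 in the UHRF1-AID line, 1.12, 0.785 and 1.1 in the DNMT1-AID line and 0.921, 1.01 and 0.775 in compound cells. CENPE was low in the same 3 day 0 libraries, and the days did not overlap within any line.

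Kinesins move along spindle microtubules or shape them. At day 0, KIF20A, a kinesin of the central spindle, was at 91.7, 88.8 and 95.9 CPM in WT, 107, 102 and 105 in the UHRF1-AID line, 112, 101 and 103 in the DNMT1-AID line and 106, 110 and 119 in compound cells. At day 4, KIF20A was at 49.4, 48.2 and 44.9 CPM in WT, 30.7, 42.6 and 50.2 in the UHRF1-AID line, 45.6, 34.9 and 30.3 in the DNMT1-AID line and 28.6, 27.9 and 30.3 in compound cells. KIF20A was higher than WT in all 9 AID libraries at day 0, and at day 4 compound cells were below WT in every library. At day 0, KIF11, the kinesin that pushes spindle poles apart, was at 66.9, 60.7 and 53.8 CPM in WT, 61.1, 66.1 and 74.2 in the UHRF1-AID line, 52.4, 48.8 and 61.3 in the DNMT1-AID line and 56.5, 61.7 and 62.3 in compound cells. At day 4, KIF11 was at 21, 25.3 and 24.4 CPM in WT, 19.6, 24.9 and 34.6 in the UHRF1-AID line, 24.6, 18.4 and 16.5 in the DNMT1-AID line and 14.1, 10.5 and 12.8 in compound cells. KIF11 at day 4 was lower in all 3 compound libraries than in any other library. At day 0, KIF15, a kinesin that supports the bipolar spindle, was at 15.8, 15.9 and 6.42 CPM in WT, 16.4, 13.5 and 17.5 in the UHRF1-AID line, 6.29, 7.88 and 13.1 in the DNMT1-AID line and 14, 14.2 and 15 in compound cells. At day 4, KIF15 was at 2.36, 2.41 and 2.22 CPM in WT, 2.39, 1.53 and 4.22 in the UHRF1-AID line, 2.82, 1.57 and 0.714 in the DNMT1-AID line and 0.491, 1.52 and 1.07 in compound cells. KIF15 separated the days in every line. At day 0, KIF20B, a kinesin of late cytokinesis, was at 28.1, 32.1 and 12 CPM in WT, 29, 32.5 and 32.5 in the UHRF1-AID line, 15.9, 13.7 and 32.4 in the DNMT1-AID line and 33.2, 31.5 and 29.9 in compound cells. At day 4, KIF20B was at 5.1, 6.32 and 8.72 CPM in WT, 10.3, 7.09 and 14.8 in the UHRF1-AID line, 4.11, 6.95 and 5.65 in the DNMT1-AID line and 4.18, 4.75 and 2.74 in compound cells. KIF20B separated the days within every line, and at day 4 compound cells were below WT.

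Spindle assembly and cytokinesis are represented by ASPM and ANLN. At day 0, ASPM, a protein of spindle poles, was at 27.3, 27.6 and 17 CPM in WT, 29, 36.2 and 31.3 in the UHRF1-AID line, 16.9, 14.7 and 29.4 in the DNMT1-AID line and 29.1, 30.5 and 28.4 in compound cells. At day 4, ASPM was at 8.23, 9.21 and 9.02 CPM in WT, 8.04, 7.83 and 14.8 in the UHRF1-AID line, 7.81, 8.7 and 5.33 in the DNMT1-AID line and 3.81, 4.87 and 4.47 in compound cells. ASPM at day 4 was lower in all compound libraries than in any WT, UHRF1-AID or DNMT1-AID library. At day 0, ANLN, the anillin that links actin and myosin in the cleavage ring, was at 114, 108 and 102 CPM in WT, 122, 127 and 135 in the UHRF1-AID line, 105, 96.1 and 142 in the DNMT1-AID line and 124, 138 and 135 in compound cells. At day 4, ANLN was at 61.3, 72.4 and 62.5 CPM in WT, 47.5, 62.3 and 76.8 in the UHRF1-AID line, 60.3, 54 and 46.8 in the DNMT1-AID line and 38.8, 37.2 and 35.5 in compound cells. ANLN was lower in every day 4 library than in any day 0 library and lowest in compound cells.

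Genes of mitotic chromosome structure close the account by role. At day 0, TOP2A, the topoisomerase that untangles sister chromatids, was at 169, 174 and 124 CPM in WT, 159, 161 and 184 in the UHRF1-AID line, 128, 129 and 155 in the DNMT1-AID line and 153, 156 and 152 in compound cells. At day 4, TOP2A was at 44.6, 54 and 56.6 CPM in WT, 49.6, 59 and 82.8 in the UHRF1-AID line, 53.3, 40.4 and 44.4 in the DNMT1-AID line and 34.9, 38.3 and 35 in compound cells. TOP2A was lower in every day 4 library than in any day 0 library. At day 0, SMC4, a condensin subunit, was at 71.7, 66.7 and 36.5 CPM in WT, 75.2, 70.4 and 76.3 in the UHRF1-AID line, 38.8, 42.6 and 65.3 in the DNMT1-AID line and 59.5, 63.2 and 71.3 in compound cells. At day 4, SMC4 was at 15, 20.5 and 20.9 CPM in WT, 22.3, 12.6 and 33.1 in the UHRF1-AID line, 14.3, 13.2 and 13.4 in the DNMT1-AID line and 7.61, 8.67 and 9.66 in compound cells. SMC4 at day 4 was lower in DNMT1-AID and compound cells than in WT in every library, and lowest in the compound line. At day 0, MKI67, the Ki-67 protein that coats mitotic chromosomes, was at 50, 68.6 and 9.29 CPM in WT, 47.5, 85.1 and 71 in the UHRF1-AID line, 11.9, 9.95 and 82.8 in the DNMT1-AID line and 63.6, 74.8 and 53.4 in compound cells. At day 4, MKI67 was at 8.03, 4.15 and 20.6 CPM in WT, 3.31, 5.5 and 9.65 in the UHRF1-AID line, 23.2, 21.5 and 19.7 in the DNMT1-AID line and 16.3, 12.8 and 14.5 in compound cells. MKI67 was low at day 0 in the 3 libraries with low counts of long genes, and the days overlapped in WT and DNMT1-AID cells.

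**Figure D2:**
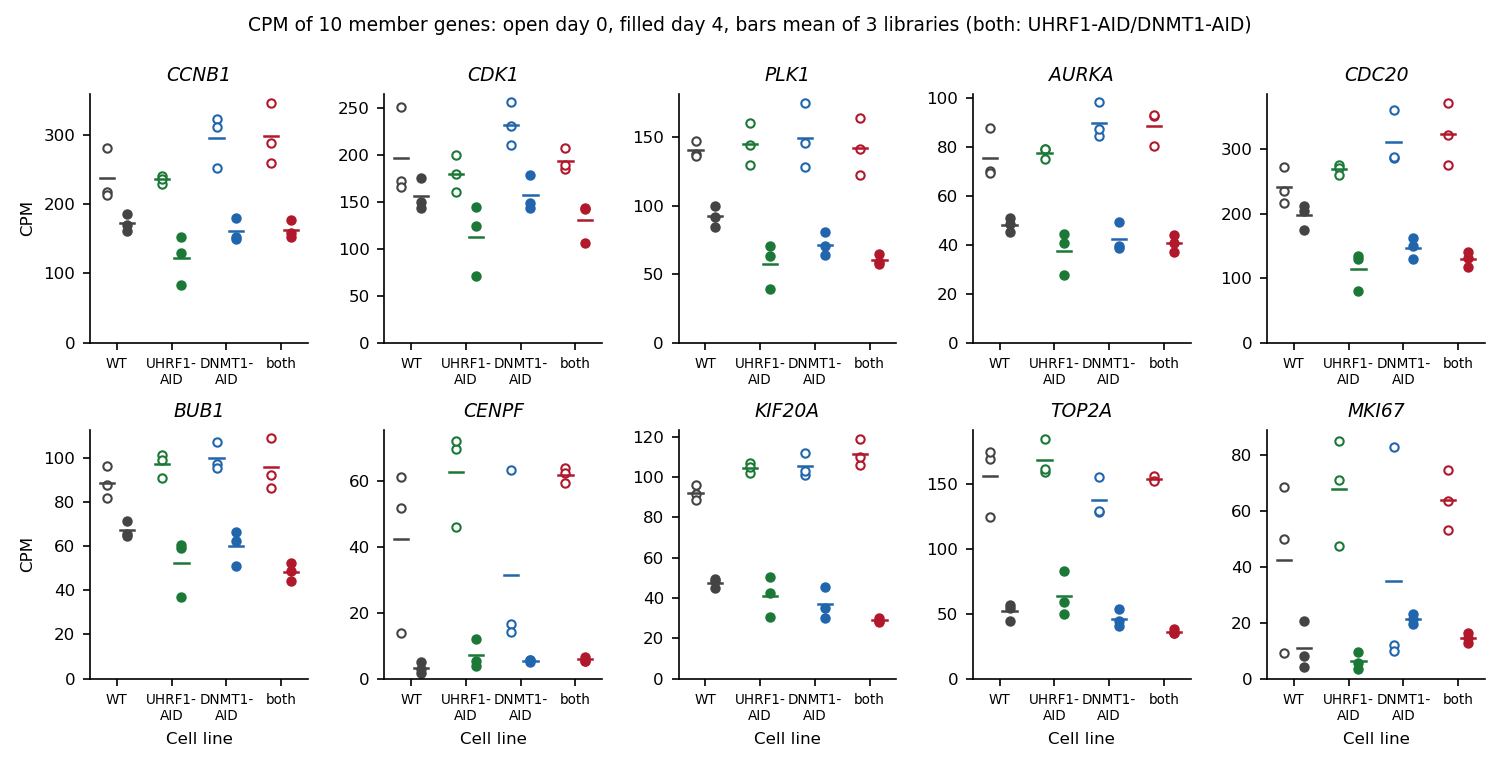
CPM of 10 members (vertical axes) in the 4 lines (horizontal axes) at day 0 (open points) and day 4 (filled points), each point 1 library and each bar the mean of 3. In CENPF and MKI67 the day 0 points of WT and DNMT1-AID cells spread widely, and in CDC20, PLK1, KIF20A and TOP2A the days separate in all 4 lines.

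How the members differed between day 0 and day 4 was asked in each line on its own, and these 4 comparisons share no library. In WT, DNMT1-AID and compound cells the falls between the days cannot be told apart from alignment folder. In WT cells, which have no tag, 35 of 50 members fell in the quasi-likelihood test of edgeR at an adjusted p under 0.05, taken over all genes. Of all genes tested, 17.8% were called lower. An absolute log2 fold change over 1 as well was seen in 16 members, against 6.53% of all genes. In a bulk sample, fewer dividing cells and less RNA of these genes per cell cannot be told apart. The median log2 fold change of the members was -0.77, and that of all genes -0.03. The largest falls without overlap of replicates (n = 3 against 3) were in CENPF, with a log2 fold change of -3.71 (SE 0.73, adjusted p = 0.0125), and CENPE, with -3.24 (SE 0.67, adjusted p = 0.0107). CENPE had as little as 0.181 CPM in WT at day 4 and passed the filter on low counts through the day 0 libraries, where it is high. KIF15 fell with -2.44 (SE 0.36, adjusted p = 0.00165), the chromosome-arm kinesin KIF4A with -1.92 (SE 0.24, adjusted p = 0.000734) and KIF20B with -1.84 (SE 0.41, adjusted p = 0.0144). By role, all 8 kinesins fell with a median of -1.50, 4 of 6 kinetochore genes with -1.02, 6 of 8 spindle assembly genes with -1.10 and 3 of 4 chromosome structure genes with -1.72. All 3 mitotic kinases fell with a median of -0.60, 3 of 7 cyclins and their partners with -0.43 and 3 of 5 checkpoint genes with -0.39. In the anaphase pathway 1 of 3 genes fell, in the chromosomal passenger complex 2 of 4 and in cytokinesis both. CENPF was not called without WT day 0 replicate 1 or 2 or WT day 4 replicate 1, with log2 fold change -4.23 to -3.35 over the 6 fits that left out 1 library. CENPE lost its call without WT day 4 replicate 1 (log2 fold change -3.83 to -2.75), and KIF20B without WT day 0 replicate 1 or WT day 4 replicate 1 or 2 (log2 fold change -2.16 to -1.58).

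In UHRF1-AID cells 48 of 50 members fell between day 0 and day 4, with both days in 1 alignment folder, against 22.9% of all genes tested. Of them 34 fell by a log2 fold change of more than 1 in size, against 9.82% of all genes. Over members the median was -1.20, and over all genes 0.02. MKI67 fell most, with a log2 fold change of -3.43 (SE 0.38, adjusted p = 0.000222), then CENPF with -3.13 (SE 0.40, adjusted p = 0.000439) and KIF15 with -2.51 (SE 0.31, adjusted p = 0.000233). CENPE fell with -2.37 (SE 0.45, adjusted p = 0.00225) and FOXM1 with -2.26 (SE 0.22, adjusted p = 6.55e-05). All 8 kinesins fell with a median of -1.40, all 8 spindle assembly genes with -1.21, all 5 checkpoint genes with -1.07 and all 4 chromosome structure genes with -1.67. All 3 anaphase genes fell with a median of -1.21 and all 4 passenger complex genes with -1.17. CDC25C and SPC25, a subunit of the NDC80 complex, were not called. Of the cyclin genes that were called, CDK1 fell least, with -0.65 (SE 0.23, adjusted p = 0.0455). That call was lost without any 1 of the UHRF1-AID day 0 libraries or day 4 replicate 3 (log2 fold change -0.90 to -0.41). Replicate 1 of the day 4 libraries had the lowest level of the 3 in 41 members, and its median log2 ratio to the WT day 0 mean was -1.52, against -0.94 and -0.84.

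In DNMT1-AID cells 42 of 50 members fell, against 20.8% of all genes called lower. A fall of more than 1 on the log2 scale was called in 27, against 6.68% of all genes. Medians were -1.06 over members and -0.01 over all genes. CENPE had a log2 fold change of -2.66 (SE 0.52, adjusted p = 0.00415) and CENPF one of -2.50 (SE 0.68, adjusted p = 0.0351), a call lost without any 1 of the 3 day 4 libraries (log2 fold change -2.86 to -1.47). KIF15 fell with -2.39 (SE 0.47, adjusted p = 0.00423), KIF14, a kinesin of cytokinesis, with -2.33 (SE 0.35, adjusted p = 0.000909) and KIF20B with -1.87 (SE 0.36, adjusted p = 0.00465). All 8 kinesins fell with a median of -1.55, 5 of 6 kinetochore genes with -1.19 and 6 of 8 spindle assembly genes with -1.28. All 3 kinases fell with a median of -1.04 and all 3 anaphase genes with -1.06. Of the cyclin genes, 5 of 7 fell, and CDC25B and FOXM1 did not pass the test. Replicate 1 of the day 4 libraries was the highest of the 3 in 42 members, with a median log2 ratio to the WT day 0 mean of -0.79, against -1.08 and -1.20.

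In compound cells 49 members fell, all but PRC1, against 32.5% of all genes called lower. In 33 of them the fall was also over 1 on the log2 scale, against 11.5% of all genes. The median over members was -1.29, and that of all genes 0.02. KIF15 fell most, with a log2 fold change of -3.76 (SE 0.24, adjusted p = 2.14e-10), then CENPF with -3.37 (SE 0.11, adjusted p = 5.23e-14) and CENPE with -3.26 (SE 0.24, adjusted p = 1.28e-09). KIF15 had as little as 0.491 CPM in compound cells at day 4 and passed the filter on low counts through the day 0 libraries, where it is high. KIF20B fell with -2.98 (SE 0.15, adjusted p = 1.46e-11) and SMC4 with -2.86 (SE 0.11, adjusted p = 5.05e-13). By role the medians ran from -0.94 in the 7 cyclin genes and the 5 checkpoint genes to -2.24 in the 8 kinesins and -2.23 in the 4 chromosome structure genes. BUB3, a checkpoint protein with other roles outside mitosis, had the smallest change in size among the called members, at -0.27. Over the 4 lines, 33 members fell in each line, 10 in 3 lines, 5 in 2 lines and 2, SPC25 and PRC1, in 1 line. The 10 were CCNA2, CDK1, FOXM1, TTK, BUB3, MAD2L1, CDC20, PTTG1, BIRC5 and CENPA, and the 5 were CDC25B, CDC25C, INCENP, NUSAP1 and MKI67. Day 4 lay below every day 0 library of the line in 37 members in WT, 44 in DNMT1-AID and all 50 in each of UHRF1-AID and compound cells. Shares of all genes that fell in 1, 2, 3 or 4 lines, or whose days separate in this way, are not given. Both sets of counts therefore describe the members only.

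**Figure D3:**
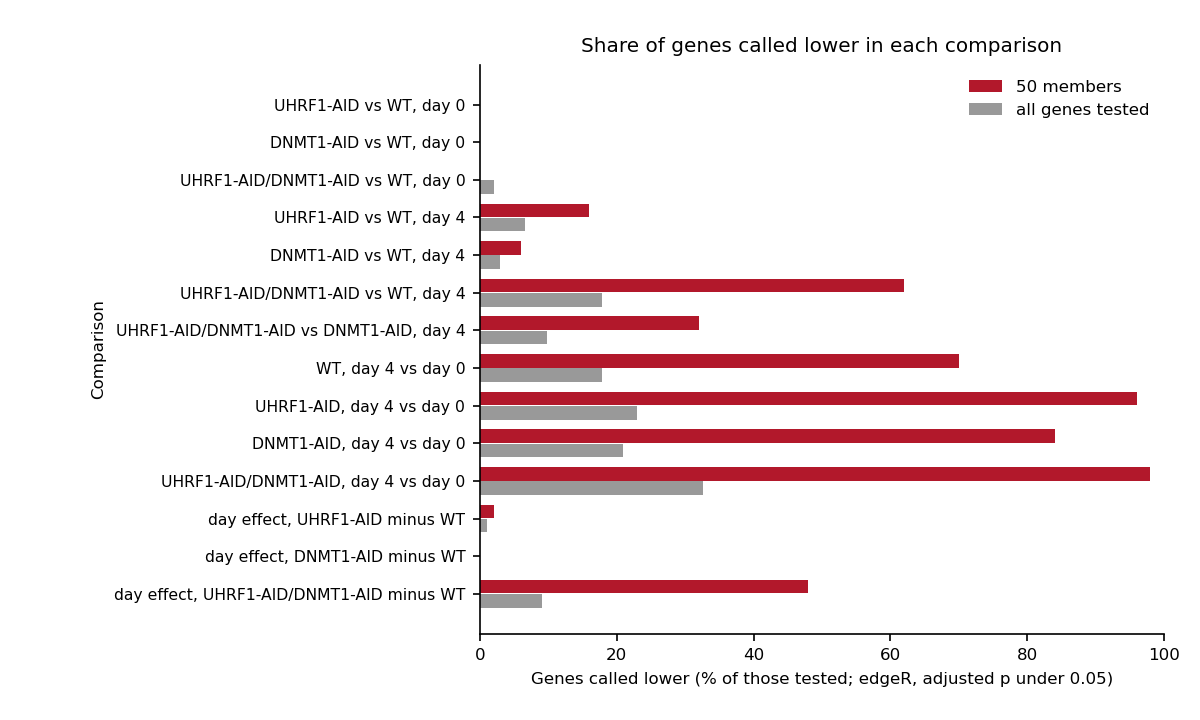
Share of the 50 members (red) and of all genes tested (grey) called lower by edgeR at an adjusted p under 0.05 (horizontal axis, percent) in each of the 14 comparisons (vertical axis). Between the days 35, 48, 42 and 49 of 50 members were called lower in WT, UHRF1-AID, DNMT1-AID and compound cells.

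How each depleted line stood against WT at day 4 was compared next, and these comparisons share the 3 WT day 4 libraries. In compound cells 31 of 50 members were lower than in WT, against 17.8% of all genes called lower. A log2 fold change over 1 in size was called in 2 of the 31, against 2.49% of all genes. The members' median log2 fold change was -0.48 and that of all genes 0.02. KIF15 was lower by a log2 fold change of -1.16 (SE 0.38, adjusted p = 0.0186) and SMC4 by -1.10 (SE 0.17, adjusted p = 2.49e-05). KIF15 had as little as 0.491 CPM in compound cells and passed the filter on low counts through the WT libraries, where it is higher. ASPM was lower with -0.99 (SE 0.19, adjusted p = 0.000369), KIF11 with -0.90 (SE 0.15, adjusted p = 5.97e-05) and CCNA2 with -0.88 (SE 0.11, adjusted p = 1.48e-06). Of the kinesins 7 of 8 were lower, with a median of -0.83, and of the spindle assembly genes 5 of 8, with -0.54. All 5 checkpoint genes were lower with a median of -0.39, and both cytokinesis genes with -0.64. Of the kinetochore genes 1 of 6 was lower, and CENPF, not called, had the highest log2 fold change at 0.86. Without WT day 4 replicate 3 CENPF was called higher, at 1.38. The anchors KIF20A at -0.70, CDC20 and PLK1 at -0.60 each, TOP2A at -0.50 and BUB1 at -0.45 were also called. The call of KIF15 was lost without compound day 4 replicate 1 or WT day 4 replicate 2 (log2 fold change -1.55 to -0.84).

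In UHRF1-AID cells at day 4, 8 members were lower than in WT, against 6.57% of all genes called lower. The members' median was -0.27 and that of all genes 0.03. MAD2L1, the checkpoint protein that binds CDC20, was lower by a log2 fold change of -0.94 (SE 0.17, adjusted p = 0.00684) and CCNA2 by -0.89 (SE 0.18, adjusted p = 0.0116). FOXM1 was lower with -0.88 (SE 0.24, adjusted p = 0.0306), CDC20 with -0.79 (SE 0.19, adjusted p = 0.0241) and CDC25B with -0.76 (SE 0.17, adjusted p = 0.0151). PLK1 was called at -0.69, and PTTG1 and the centromeric histone CENPA were the other members called. Over members the values ran from that of MAD2L1 up to 1.52 in CENPE, which was not called. CENPE was called without UHRF1-AID day 4 replicate 1, its lowest library in that line, at 1.91. At 0.638, 0.181 and 1.02 CPM in WT and 0.633, 1.96 and 2.78 in UHRF1-AID cells, CENPE rests on few counts here. Of the cyclin genes 3 of 7 were lower with a median of -0.67, while the 8 kinesins, not called, had a median of 0.16. The median was -0.14 without UHRF1-AID day 4 replicate 1 and -0.43 without replicate 3. In a joint fit of all 24 libraries 17 members were called lower, against 11.7% of all genes. The number called was 19 (2 higher and 17 lower, against 14.9% and 12.2% of all genes) without UHRF1-AID day 4 replicate 2. Without replicate 3 it was 4, all lower, against 2.44% of all genes. It was 3, all lower, without WT day 4 replicate 1 or replicate 2, against 2.25% and 2.64% of all genes. Without WT day 4 replicate 3 it was 4, all lower, against 3.62%. FOXM1 and PLK1 lost their calls without any 1 WT day 4 library (log2 fold change -1.16 to -0.68 and log2 fold change -0.86 to -0.49), and CDC20 without WT day 4 replicate 1 or 2 or UHRF1-AID day 4 replicate 3 (log2 fold change -0.97 to -0.60). CDC25B lost its call without UHRF1-AID day 4 replicate 3 (log2 fold change -0.92 to -0.62).

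In DNMT1-AID cells at day 4, 3 members were lower than in WT, against 2.93% of all genes called lower. Medians of -0.23 over members and 0.00 over all genes were found. KIF2C, a kinesin that depolymerises microtubules, was lower by a log2 fold change of -0.50 (SE 0.12, adjusted p = 0.021), CCNA2 by -0.45 (SE 0.12, adjusted p = 0.0403) and CDC20 by -0.41 (SE 0.10, adjusted p = 0.0252). Over members the values ran from -0.90 in KIF14 to 0.97 in MKI67, neither of which was called. Without WT day 4 replicate 3 MKI67 was called, at 1.85. Without DNMT1-AID day 4 replicate 3 the median was -0.14, and a joint fit of all 24 libraries called 1 member lower, against 2.32% of all genes. The number called was 9, all lower, without DNMT1-AID day 4 replicate 1 (1.38% of all genes) and 0 without replicate 3 (0.998% of all genes lower). It was 1, lower, without WT day 4 replicate 1 and 0 without replicate 2, against 1.11% and 0.432% of all genes lower. Without WT day 4 replicate 3 it was 11 (4 higher and 7 lower, against 12.3% and 5.17% of all genes). KIF2C and CDC20 lost their calls without DNMT1-AID day 4 replicate 3 or WT day 4 replicate 1 or 2 (log2 fold change -0.58 to -0.38 and log2 fold change -0.48 to -0.33). CCNA2 lost its call without DNMT1-AID day 4 replicate 2 or 3 or WT day 4 replicate 1 or 2 (log2 fold change -0.59 to -0.34).

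Against DNMT1-AID cells at day 4, 16 members were lower in compound cells, where UHRF1 was tagged as well. Of all genes 9.79% were called lower. The members' median was -0.27 and that of all genes -0.01. CDC25B was lower by a log2 fold change of -0.90 (SE 0.10, adjusted p = 4.16e-06) and ASPM by -0.72 (SE 0.21, adjusted p = 0.0235). KIF11 was lower with -0.66 (SE 0.16, adjusted p = 0.00781), SMC4 with -0.65 (SE 0.15, adjusted p = 0.00476) and the condensin subunit SMC2 with -0.62 (SE 0.21, adjusted p = 0.0477). All 4 chromosome structure genes were lower with a median of -0.59, 4 of 8 spindle assembly genes with -0.32 and both cytokinesis genes with -0.40. A joint fit of all 24 libraries called 4 members, against 4.83% of all genes lower. The median was -0.17 without DNMT1-AID day 4 replicate 1. The number called was 5 without DNMT1-AID day 4 replicate 1, and 10, 8 and 8 without compound day 4 replicates 1, 2 and 3. The share of all genes called in these fits is not given, so the counts describe the members only. ASPM lost its call without DNMT1-AID replicate 1 or 2 or compound replicate 1 or 3 (log2 fold change -0.91 to -0.57), and KIF11 without DNMT1-AID replicate 1 or compound replicate 2 (log2 fold change -0.78 to -0.46). SMC2 kept its call in 1 of 6 such fits, the one without compound replicate 2 (log2 fold change -0.87 to -0.46).

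Before auxin the lines were compared with WT to see where they started, and these comparisons share the 3 WT day 0 libraries. In UHRF1-AID cells no member was called by edgeR, 1 had an unadjusted p under 0.05 (3.69% of all genes did) and DESeq2 called 0. Of all genes edgeR called 0% in either direction and DESeq2 0.0864%. The members' median was 0.10, that of all genes 0.01, and values ran from -0.16 in CDC25C to 0.68 in CENPE. The smallest p-values were those of ANLN at 0.25 and KIF20A at 0.19 above 0, and CDC25C and CDK1, at -0.11, below 0. CDC25C and CDK1 both turned to 0.07 without WT day 0 replicate 3. In DNMT1-AID cells edgeR and DESeq2 called 0 members, and 2 had an unadjusted p under 0.05 (5.14% of all genes did). Of all genes edgeR called 0.00723%, all of them lower, and DESeq2 0.0506% (0.0289% higher and 0.0217% lower). The members' median was 0.01 and that of all genes -0.01. CDC20 at 0.33 and PTTG1 at 0.43 had the smallest p above 0, and FOXM1 at -0.56 and CDC25B at -0.28 below. Without DNMT1-AID day 0 replicate 2 the median was 0.07, and without replicate 3 it was -0.02. With the 3 libraries with low counts of long genes left out together, 13 members were called, 11 higher and 2 lower, against 22.2% of all genes (11.5% higher and 10.7% lower). That fit holds 1 DNMT1-AID library against 2 of WT, so its spread comes from the WT pair alone and its calls carry little weight.

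In compound cells at day 0, PTTG1 alone was called, higher with a log2 fold change of 0.52 (SE 0.11, adjusted p = 0.0492), against 1.53% of all genes called higher. No member was called lower by edgeR, against 2.1% of all genes, 7 members had an unadjusted p under 0.05 in either direction (20.2% of all genes did), and DESeq2 called 1. The members' median was 0.06 and that of all genes 0.01. PTTG1 was not called without any 1 of the compound day 0 replicates or without WT day 0 replicate 1 or 2 (log2 fold change 0.45 to 0.64), which leaves 0 members. Without WT day 0 replicate 3, a library with low counts of long genes, 14 were called, 11 higher and 3 lower, against 27.6% of all genes (13.5% higher and 14.1% lower), a share near that of the members. The median was 0.10 without compound day 0 replicate 1 or WT day 0 replicate 1 and 0.03 without compound day 0 replicate 3. With the replicate number as a block 0 were called.

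Whether the fall over 4 days differed from that in WT was tested as a difference of day effects in 12 libraries, and these tests share the 6 WT libraries. The fall was larger than in WT for 24 members in compound cells, against 9.12% of all genes called lower. For 6 of them the difference was over 1 in size, against 1.96% of all genes. The median difference of log2 fold changes was -0.55 over members and -0.02 over all genes. Differences were -1.30 (SE 0.25, adjusted p = 0.00349) in ASPM, -1.27 (SE 0.33, adjusted p = 0.025) in SMC4 and -1.12 (SE 0.13, adjusted p = 0.000113) in ANLN. In HMMR, a spindle assembly factor, the difference was -1.09 (SE 0.15, adjusted p = 0.000405), and in CDC20 -1.04 (SE 0.16, adjusted p = 0.00087). All 3 anaphase genes were called with a median of -0.70, both cytokinesis genes with -0.78, 5 of 8 spindle assembly genes with -0.65 and 4 of 8 kinesins with -0.98. KIF15, which had the lowest value at -1.36, was not called, but was without WT day 0 replicate 3, at -1.02. SMC4 lost its call without compound day 0 replicate 3, day 4 replicate 1 or 2, or WT day 4 replicate 2 (log2 fold change from -1.41 to -1.0). In UHRF1-AID cells the difference was called lower in CDC20 alone, at -0.96 (SE 0.23, adjusted p = 0.0416), against 1.02% of all genes, and the members' median was -0.34 (-0.17 without UHRF1-AID day 4 replicate 1) and that of all genes 0.02. Only the WT days differ in alignment folder there, so this difference cannot be told apart from folder. That number was 0 without any 1 of the UHRF1-AID day 0 libraries, WT day 0 replicate 1 or 2, or any 1 of the WT day 4 libraries, and 4 without UHRF1-AID day 4 replicate 2 or WT day 0 replicate 3 (1.15% and 2.25% of all genes lower). Without UHRF1-AID day 4 replicate 3 CDC20 also lost its call (log2 fold change -1.12 to -0.75), and with the replicate number as a block 0 members were called. In DNMT1-AID cells edgeR called 0 members, against 0.0139% of all genes lower, 13 had an unadjusted p under 0.05 (12.7% of all genes did) and DESeq2 called 1. The members' median there was -0.26 and that of all genes -0.01. CDC20 at -0.76 and PTTG1 at -0.61 had the smallest p below 0, and INCENP, the scaffold of the passenger complex, at 0.79 and FOXM1 at 0.67 above. Without WT day 0 replicate 3, 3 members were called, CDC20 at -0.87 and PTTG1 at -0.77 among them, against 0.824% of all genes lower, and the median was -0.39, and without DNMT1-AID day 4 replicate 1 it was -0.40.

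Members were then split at their median exon length of 4474.5 bases into 25 longer and 25 shorter genes. Lengths ran from 1286 bases in UBE2C to 12807 in MKI67, and CENPF, ASPM and CENPE followed with 11690, 10887 and 9444. Set against the mean of the day 0 libraries, the median of the longer members minus that of the shorter was 0.27, 0.32 and -0.39 in WT day 0 replicates 1, 2 and 3. It was -0.58, -0.40 and 0.12 in the DNMT1-AID day 0 replicates. Against the mean of the day 4 libraries it was 0.42, -0.00 and 0.67 in UHRF1-AID day 4 replicates 1, 2 and 3, and -0.29, 0.01 and 0.07 in WT. Longer members were thus relatively high in UHRF1-AID replicates 1 and 3 at day 4 and low in WT replicate 1.

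**Figure D4:**
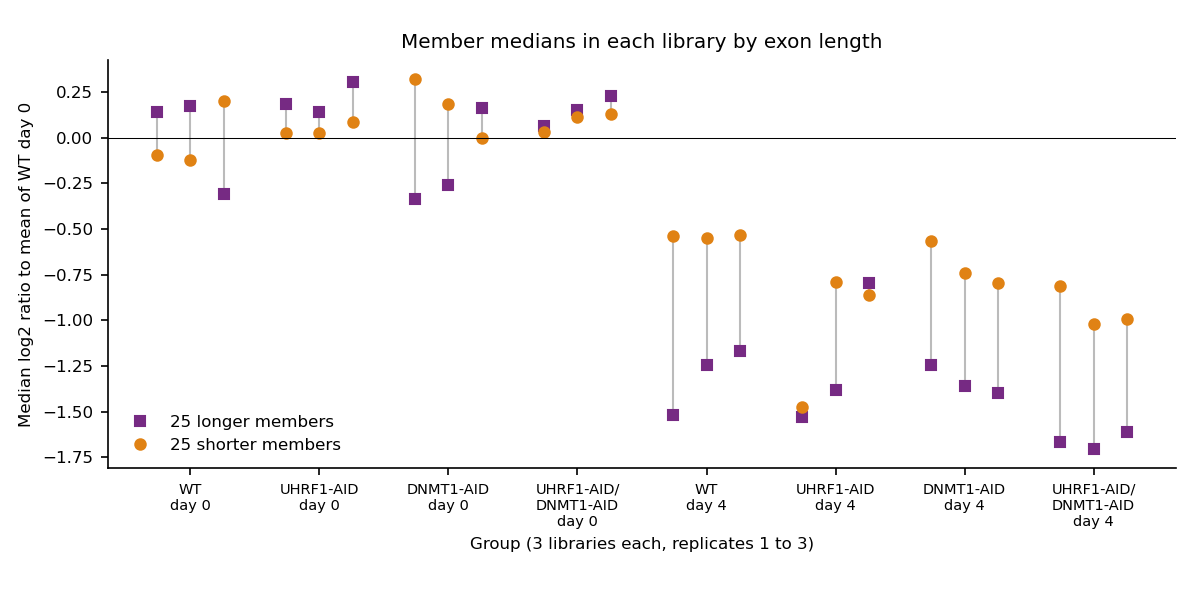
Median log2 ratio to the mean of WT day 0 (vertical axis) of the 25 longer (squares) and 25 shorter (circles) members in each of the 24 libraries (horizontal axis, replicates 1 to 3 in order). Both sets lie lower in all 12 day 4 libraries than in any day 0 library, and WT day 0 replicate 3 and DNMT1-AID day 0 replicates 1 and 2 have squares below circles.

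In WT between the days the longer members had a median log2 fold change of -1.35 and the shorter of -0.56, with 21 and 14 of 25 called lower. All genes split at the same length differed by -0.14 as counted, and the members by -0.79. After a correction of each library for gene length, the difference was -0.58 in members and 0.01 in all genes. In UHRF1-AID cells all 25 longer and 23 shorter members fell, with medians of -1.32 and -1.02. In DNMT1-AID cells 21 of each fell, with medians of -1.21 and -0.96. In compound cells 24 longer and all 25 shorter members fell, with medians of -1.79 and -1.07. There the difference was -0.72 as counted and -0.63 corrected, and in all genes -0.20 and -0.02. Across the 50 members, which are not replicates, the Spearman correlation of exon length with the log2 fold change was -0.624 in WT, -0.501 in the UHRF1-AID line, -0.344 in the DNMT1-AID line and -0.537 in compound cells. After the correction the correlations were -0.553, -0.461, -0.326 and -0.487. Of all genes, 20.2% of longer and 15% of shorter ones fell in WT, 25% and 20.6% in the UHRF1-AID line, 21.2% and 20.4% in the DNMT1-AID line and 37.6% and 27% in compound cells.

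The order by length differed between lines at day 4. In UHRF1-AID against WT the longer members had a median of 0.12 with 3 called lower, and the shorter of -0.49 with 5, against 4.29% of longer and 9.21% of shorter genes over all. That difference was 0.62 as counted and 0.48 after the length correction, and in all genes 0.14 and -0.02. In compound against WT the medians were -0.47 in longer and -0.49 in shorter members, with 17 and 14 called lower, against 19.8% and 15.5% of all genes. After the correction they were -0.46 and -0.58, with 16 and 15 called lower and 1 longer member higher. DNMT1-AID cells gave -0.24 and -0.23, with all 3 called members among the shorter, against 3.27% of longer and 2.53% of shorter genes. Against DNMT1-AID cells the compound line gave -0.32 with 11 lower among longer and -0.19 with 5 among shorter members, against 11.9% and 7.4% of all genes. Corrected for length it gave -0.30 with 10 and -0.28 with 6, so the difference went from -0.13 to -0.02, and that of all genes from -0.10 to -0.02. In the difference of day effects between compound and WT cells, 11 longer and 13 shorter members were called lower, with medians of -0.57 and -0.51, against 9.1% and 9.15% of all genes. For UHRF1-AID cells the medians of that difference were -0.23 in longer and -0.51 in shorter members. For DNMT1-AID cells they were -0.07 and -0.41. Longer minus shorter was 0.28 and 0.34 in these lines as counted, and 0.24 and 0.13 after the length correction.

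**Figure D5:**
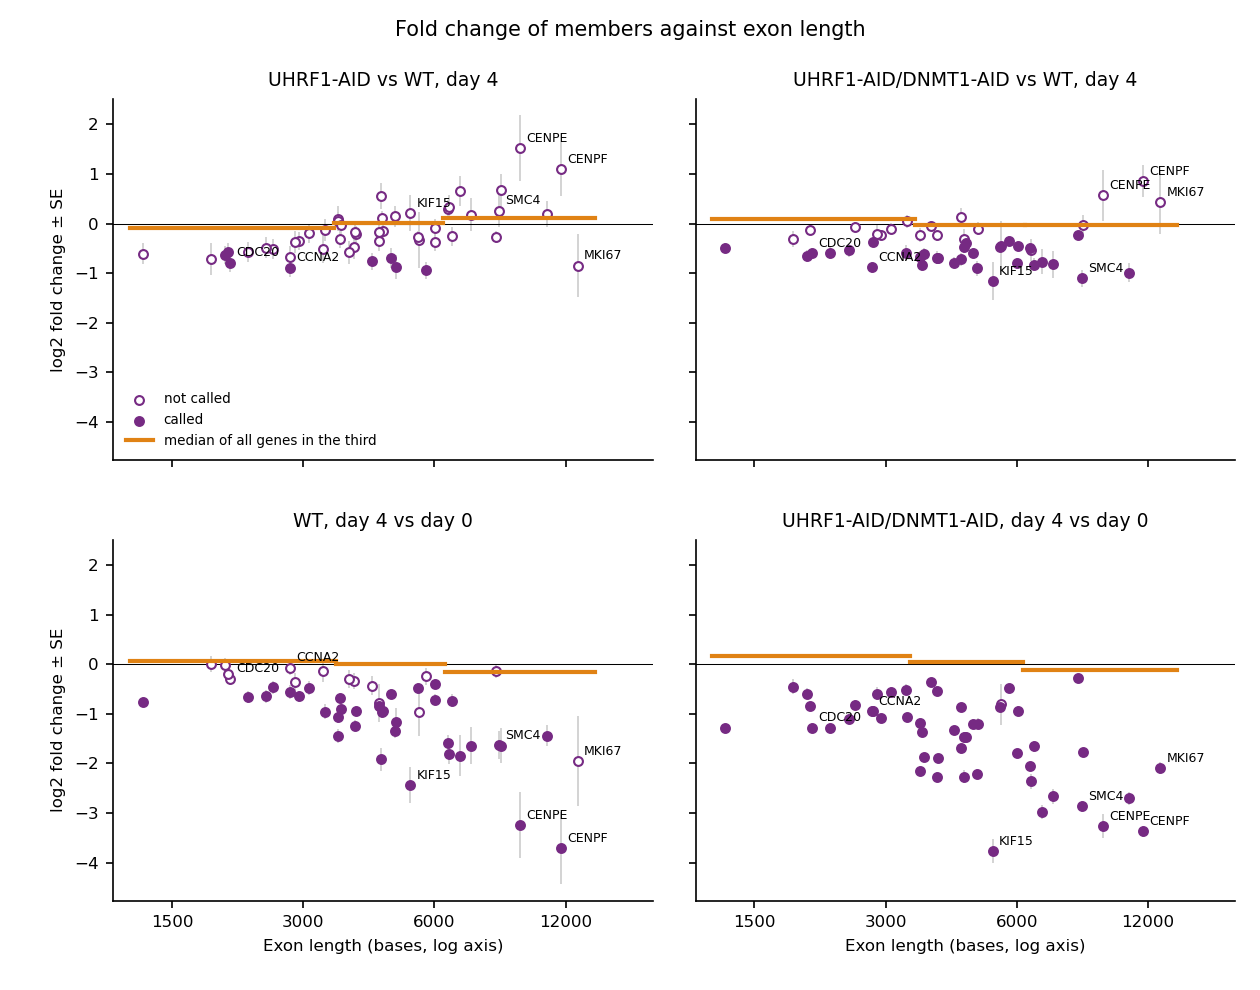
Log2 fold change ± SE (vertical axis) of each of the 50 members against exon length in bases (horizontal log axis) in 4 comparisons, filled where called and open where not, with the median of all genes in each of 3 bins of length in orange. In UHRF1-AID cells against WT at day 4 the shorter members lie lower, while between the days the longer members CENPE and CENPF lie among the lowest.

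Other genes of mitosis and its control, outside the 50, were counted in the same fits. Of 54 other mitotic genes, condensin, kinetochore and kinesin genes among them, 33 fell between the days in WT, 46 in the UHRF1-AID line, 41 in the DNMT1-AID line and 48 in compound cells, with medians of -0.59, -0.96, -0.78 and -1.01. NCAPD2, a condensin subunit, fell in compound cells with a log2 fold change of -2.26 (SE 0.08, adjusted p = 2.05e-13). At day 4 against WT, 26 were lower and 1 higher in compound cells (17.8% and 20.4% of all genes), 9 lower and 1 higher in UHRF1-AID cells (6.57% and 10.9%) and 4 lower in DNMT1-AID cells (2.93%). In the compound line KIF22, a chromosome-arm kinesin, was lower than in WT with -0.81 (SE 0.10, adjusted p = 2.4e-06). Of 12 DREAM and B-MYB complex genes, 8 fell and 1 rose in WT, 8 fell in UHRF1-AID, 6 fell in DNMT1-AID and 9 fell and 1 rose in compound cells. E2F4, the E2F protein of DREAM, fell in the compound line with -1.43 (SE 0.09, adjusted p = 2.62e-10). Of 15 subunits and activators of the anaphase-promoting complex, which work with the member CDC20, 6 fell and 3 rose in that line, with a median of -0.23. Of all genes 32.5% fell and 35.2% rose there, so the fallen share lies near that of all genes. In WT 3 of the 15 fell and 1 rose, against 17.8% and 17.7% of all genes. In UHRF1-AID cells 3 fell and 1 rose, against 22.9% and 26.5%, and in DNMT1-AID cells 7 fell and 1 rose, against 20.8% and 19.5%.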

How the data were processed

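The authors used STAR to align reads of polyadenylated RNA to hg38, then featureCounts for genes, and deposited raw counts of reads per gene, 1 table for each of 24 libraries. Symbols were matched to 58207 of 58735 genes, and 31297 genes had a count. Groups came from the sample labels.

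Counts were tested with R 4.3.3 and edgeR 4.0.16. Each fit held only the libraries compared, after filterByExpr and TMM scaling, and the robust quasi-likelihood test was adjusted by Benjamini-Hochberg over all genes tested. Called means an adjusted p under 0.05. Fits were made for 11 comparisons of groups and 3 differences of day effects. The fitting code, not each fit, was tested on simulated counts with the same dispersion for every gene. That was done in a single comparison of groups and a single difference of day effects. Standard errors (SE) belong to the fitted log2 fold changes, and log2 ratios of libraries used a prior count of 2. The members, gene lists and alternatives were chosen with earlier results of these data known.

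In every comparison fold changes could be given for the 10 anchors. Named as well were up to 5 called members in each direction with the largest change and no overlap of replicates (for day effects, without that condition), or the 2 with the smallest p in each direction where none was called. Values in every library are given for anchors and members named in at least 2 comparisons. Of each other list up to 3 called genes in each direction could be named. The highest and lowest value over members in some comparisons, BUB3 and the members named for overlaps with other genes were added after values were seen.

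Alternatives were RLE scaling, testing without a filter, a minimum of 10 counts in each library compared and a joint fit of all 24 libraries. Others were a block for the replicate number, DESeq2 1.42.0 and a correction for gene length (a lowess curve of span 0.3 on log2 exon length, as offsets). Block and length were also used together. The 3 day 0 libraries with low counts of long genes (WT day 0 replicate 3, DNMT1-AID day 0 replicates 1 and 2) were left out together. Other libraries had a length trend too, and that alternative touches no comparison of day 4 libraries alone. The last were an absolute log2 fold change over 1 and 102 fits each without 1 library. Whether equal replicate numbers mark pairs was checked by correlating, across genes, how far libraries of one number deviate from their group means. Over 11 comparisons the correlations lay between -0.716 and 0.315, and only in UHRF1-AID cells between the days were all 3 over 0.1 (0.289, 0.177 and 0.157). There 49 members were called with the replicate number as a block, against 48 without it. Replicates differed more than counting noise alone gives (chi-square over degrees of freedom of 3.49 to 58.2 for pairs). Spike-in counts were left out. Python 3.11.15 with pandas 2.3.3 and matplotlib 3.10.9 drew the figures.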

Additional observations from a re-analysis of the deposited data

Results flagged for a closer look

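Whether the fall of members over 4 days differed from that in WT was tested on the difference itself. In UHRF1-AID cells 1 member was called, CDC20, with a difference of log2 fold changes of -0.96, against 1.02% of all genes called lower. That call was lost without any 1 of the UHRF1-AID day 0 libraries, UHRF1-AID day 4 replicate 3, WT day 0 replicate 1 or 2, or any 1 of the WT day 4 libraries (log2 fold change -1.12 to -0.75), and with RLE scaling, the minimum of 10 counts or the replicate block. In compound cells 24 members were called, all lower, against 9.12% of all genes. Among them were ASPM at -1.30, SMC4 at -1.27, ANLN at -1.12, HMMR at -1.09, CDC20 at -1.04 and KIF20A at -1.0. The kinases PLK1 at -0.64, BUB1 at -0.60 and AURKA at -0.49 were also among them. BUB1 lost its call without WT day 0 replicate 1 (log2 fold change -0.68 to -0.49 over the 12 fits that left out 1 library). AURKA lost its call without compound day 0 replicate 2 or 3, day 4 replicate 1 or 2, WT day 0 replicate 1 or 2, or WT day 4 replicate 1 or 2 (log2 fold change -0.57 to -0.39). WT and compound cells share their alignment folders at each day. Both days of UHRF1-AID cells lie in 1 folder and those of WT in 2, so for that line the difference from WT cannot be told apart from folder.

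ERCC spike-in sequences, which no comparison used, made up 0.891% to 1.65% of the counts in 9 of the 12 day 4 libraries and 0 in the other 15 libraries.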

How the results depend on the processing

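Depth was at least 15824804 counts a library, and CENPE, at 0.181 to 2.78 CPM at day 4, KIF15, at 0.491 to 4.22 CPM, and PRC1, at 0.176 to 1.75 CPM, rest on few counts there. Apart from the fits without 1 library, 116 of 120 medians stayed within the replicate spread and 104 of 134 counts within 1.5 times. Of 719 log2 fold changes of named genes, 659 kept direction and side of the threshold, 39 were no longer called, 19 were newly called and 2 changed sign. The causes were not tested. Both that changed sign were CDC25C and CDK1 in UHRF1-AID against WT at day 0. Over fits without 1 library they ran from -0.31 to 0.07 and from -0.20 to 0.07. The highest value was without WT day 0 replicate 3 and the lowest without WT day 0 replicate 2. With the 3 libraries with low counts of long genes left out, both were 0.07. Members called with those 3 left out were 13 (11 higher, 2 lower) in DNMT1-AID at day 0, with a median of 0.09, against 22.2% of all genes and with the spread from 2 WT libraries alone since 1 DNMT1-AID library was left, 14 (11 higher, 3 lower) in compound at day 0, against 27.6% of all genes, 4 for the day effect of UHRF1-AID and 2 for that of DNMT1-AID.

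The number called changed by more than 1.5 times in these cases. In compound at day 0 it was 0 with RLE scaling, 2 (both higher) with no filter on low counts and 0 with the replicate block. Of all genes 1.48%, 1.7% and 0.67% were called higher there. At day 4 against WT in UHRF1-AID it was 20 (3 higher, 17 lower) with no filter, against 9.68% and 5.37% of all genes. With all 24 libraries in 1 fit it was 17, all lower, against 11.7%. For DNMT1-AID against WT it was 10 (2 higher, 8 lower) with no filter, against 5.68% and 2.79% of all genes. With all 24 libraries it was 1, lower, against 2.32%. Against DNMT1-AID it was 4 with all 24 libraries. For the day effect of UHRF1-AID it was 0 with RLE scaling, 9 with no filter, 0 with at least 10 counts, 6 with all 24 libraries, 0 with the replicate block, 2 with DESeq2 and 3 with the length correction. For that of DNMT1-AID it was 6 (4 higher, 2 lower) with no filter and 1 with DESeq2. With the 3 libraries with low counts of long genes left out, the day effect of DNMT1-AID rested on 1 DNMT1-AID day 0 library, so its calls carry little weight. Shares of all genes are not given here for the day effects of UHRF1-AID and DNMT1-AID, so the counts describe the members only. With an absolute log2 fold change over 1, which calls fewer genes by construction, it was 0 in compound at day 0, 0 in UHRF1-AID and 0 in DNMT1-AID at day 4, 2 in compound against WT and 0 against DNMT1-AID. Between the days it was 16 in WT and 27 in DNMT1-AID, and for day effects 0 in UHRF1-AID and 6 in compound. The median moved to -0.03 in DNMT1-AID at day 0 with block and length correction, and to -1.40 in compound between the days with the length correction, alone or with the block.

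Without 1 library, called members ranged from 0 to 14 in compound at day 0 and were 0 in both other lines, with medians from 0.03 to 0.10, 0.07 to 0.12 in UHRF1-AID and -0.02 to 0.07 in DNMT1-AID. At day 4 against WT they ranged from 3 to 19 in UHRF1-AID (medians -0.43 to -0.14), 0 to 11 in DNMT1-AID (-0.29 to -0.14) and 27 to 33 in compound (-0.52 to -0.46), and against DNMT1-AID from 5 to 19 (-0.33 to -0.17). Between the days they ranged from 28 to 37 in WT (-0.82 to -0.70), 44 to 47 in UHRF1-AID (-1.29 to -1.01), 36 to 45 in DNMT1-AID (-1.17 to -0.98) and 48 to 49 in compound (-1.38 to -1.25). For day effects they ranged from 0 to 4 in UHRF1-AID (-0.50 to -0.17), 0 to 3 in DNMT1-AID (-0.40 to -0.25) and 17 to 32 in compound (-0.64 to -0.49). Shares of all genes called in the same fits are not given beside these ranges, so the ranges describe the members only.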

Other observations

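Genes of DNA replication moved in the direction of the mitotic genes. Between the days, 17.8%, 22.9%, 20.8% and 32.5% of all genes fell in WT, UHRF1-AID, DNMT1-AID and compound cells. Of 34 replication genes, 22 fell between the days in WT, 29 in the UHRF1-AID line, 32 in the DNMT1-AID line and 32 in compound cells, with medians of -0.74, -1.29, -1.07 and -1.25. MCM3, a subunit of the replicative helicase, fell with a log2 fold change of -1.36 (SE 0.12, adjusted p = 0.000121) in WT and -1.89 (SE 0.07, adjusted p = 5.38e-13) in compound cells. At day 4 against WT 23 of the 34 were lower in compound cells (17.8% of all genes were), 9 lower and 1 higher in UHRF1-AID cells (6.57% and 10.9% of all genes) and 6 lower in DNMT1-AID cells (2.93%). RRM1, the large subunit of ribonucleotide reductase, was lower than in WT with -1.09 (SE 0.10, adjusted p = 3.43e-08) in the compound line. Of 10 cohesin genes, all 10 fell in WT between the days, 8 in each of the single-tag lines and 9 in compound cells. SMC3, a core cohesin subunit, fell with -2.31 (SE 0.10, adjusted p = 1.47e-12) in the compound line.

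Inhibitors of cyclin-dependent kinases moved less uniformly. Of 7, 2 rose and 2 fell in WT between the days, 3 rose in UHRF1-AID, 1 rose and 1 fell in DNMT1-AID and 5 rose and 1 fell in compound cells. In the same order of lines, 17.7%, 26.5%, 19.5% and 35.2% of all genes rose. CDKN1A, the inhibitor p21, rose with a log2 fold change of 1.04 (SE 0.13, adjusted p = 0.000234) in UHRF1-AID and 0.64 (SE 0.08, adjusted p = 1.52e-06) in compound cells. Of the G1 cyclins and kinases, 7 of 8 were tested. Between the days 5 rose in WT, 3 rose and 2 fell in each of UHRF1-AID and DNMT1-AID cells, and 2 rose and 2 fell in compound cells. CDK6, a G1 kinase, rose with 2.10 (SE 0.12, adjusted p = 3.42e-09) in the compound line and CDK4, its close relative, fell with -0.68 (SE 0.07, adjusted p = 2.04e-07).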
